A study of Rattus norvegicus with 6 samples.

Results

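The genes described here are named for proteins of the mitochondrial ribosome, with symbols that begin with Mrpl for the large subunit and Mrps for the small subunit. They were taken by symbol, as Mrpl or Mrps followed by a number and at most 1 letter (a, b or c), with at least 60 counts summed over the libraries. Of 29884 genes in the count table, 75 had such a symbol and 74 reached that sum. Mrpl53, the symbol left out, had 0 counts, and the member nearest above the limit, Mrpl32, had 3098. Symbols without a row in the count table, such as Mrpl9, Mrpl11 and Mrpl24, are not covered. The 4 genes that stand for the group, Mrpl12, Mrpl3, Mrps7 and Mrps15, had counts in every library.

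RNA came from trigeminal ganglia, which hold the cell bodies of the facial sensory neurons, of rats labelled wild type. In the 3 injury samples the infraorbital nerve, a facial branch of the trigeminal nerve, had been chronically constricted (CCI-ION), which models the facial pain of trigeminal neuralgia. The 3 conduit samples had this constriction too, followed by SFM-Gel @NGC-Light, which the study's title describes as a light-driven bioactive nerve conduit, so every sample carries the nerve injury. The labels give days 14, 15 and 16 after injury for injury samples 1, 2 and 3 and days 17, 18 and 19 for conduit samples 1, 2 and 3, rising by 1 in label order. Whether these are true sampling days is not known; if they are, day and treatment cannot be told apart. Batch 1 holds injury samples 1 and 2, batch 2 holds injury sample 3 and conduit sample 1, and batch 3 holds conduit samples 2 and 3. Whether the samples are separate animals is not labelled, so the spread that p-values measure may be technical. The labels name mitochondrial function as the question, asked here of the genes of mitochondrial translation.

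The mitochondrial ribosome translates the few proteins that mitochondrial DNA encodes, all of them subunits of the respiratory chain and ATP synthase. Its RNAs come from mitochondrial DNA, but every one of its proteins is encoded in the nucleus, made in the cytosol and imported. Many descend from bacterial ribosomal proteins, and others are found only in mitochondrial ribosomes. Neurons have long axons with a high demand for ATP and depend on this supply of respiratory subunits.

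Libraries held 40.2 M to 41.9 M counts, and the 74 members took 0.215% to 0.260% of them. All 8 sensory neuron markers and all 6 Schwann cell markers were detected in every library. Markers of other tissues differed between libraries. Summed over 6 skeletal muscle genes, the level was 8959 CPM (counts per 1 M counts, after TMM scaling of the library totals) in conduit sample 2, 506 in injury sample 1 and 7.46 to 16.1 in the other libraries. Pituitary genes, 4 in all, summed to 5998 CPM in injury sample 1 and to 1.21 to 16.8 elsewhere. The 7 markers of dividing cells summed to 91.0 and 60.9 CPM in injury samples 2 and 3 and to 12.6 to 18.7 in the rest, and erythroid, neutrophil and bone markers were also highest in those injury samples. For these last 3 lists injury sample 1 exceeded every conduit library too. Ltf, a neutrophil granule protein, had 0 counts in all libraries. These are bulk samples, so fewer cells of a type and less RNA per cell cannot be told apart.

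Of the 74 members, 47 belong to the large subunit and 26 to the small one. The remaining gene, Mrps36, carries a ribosomal name but is known as a part of the 2-oxoglutarate dehydrogenase complex of the TCA cycle. Mrps18a and Mrps30 also carry small-subunit names, but their proteins sit in the large subunit and are counted there. Levels between genes are compared on the deposited FPKM scale, which divides counts by gene length and library total. The median member had a mean level of 23.9 FPKM, above that of 81.9% of the 16478 genes tested, and 57 of the 74 members lay within 2-fold of it.

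Mrpl17, a large-subunit protein near the exit of the peptide tunnel, had the highest level in all 6 libraries, at 132, 109 and 109.7 FPKM across injury samples 1, 2 and 3, and at 99.3, 108 and 121 across conduit samples 1, 2 and 3. Its groups overlapped. After it among the large-subunit genes came Mrpl54 (72.03 ± 17.8 FPKM in injury and 82.2 ± 13.5 in conduit) and Mrps18a (64.2 ± 10.5 FPKM in injury and 64.1 ± 10.04 in conduit, each mean ± SD, n = 3 per group). Mrpl54 and Mrps18a did not differ beyond their spread. At the low end, Mrpl47, the homolog of a bacterial protein at the tunnel exit, was lowest in every library, between 5.32 and 5.67 FPKM. It was followed upward by Mrpl40 at a mean of 7.42 FPKM and Mrpl50 at 9.46. Counts and FPKM imply gene lengths of 2950 bases for Mrpl47 and 2402 for Mrpl40 against a median of 1151 over the members, and FPKM divides by these lengths.

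Among the small-subunit genes Mrps7, which binds rRNA in the head of the subunit, was highest at 61.9 ± 2.55 FPKM in injury and 64.2 ± 4.68 in conduit (mean ± SD, n = 3). Mrps6, which lies on the platform beside the S18 protein, followed at 43.3 ± 3.76 FPKM in injury and 46.4 ± 2.37 in conduit, and Mrps18b at 35.3 ± 7.33 FPKM in injury and 38.1 ± 5.50 in conduit. Lowest were Mrps27 with a mean of 9.35 FPKM, Mrps10 with 10.5 and Mrps2 with 11.1. The paralogs of bacterial S18 differed in level: Mrps18a stood at 64.2 FPKM over the 6 libraries, Mrps18b at 36.7 and Mrps18c at 17.6. Mrps30 had a mean of 24.2 FPKM, Mrpl58, a peptidyl-tRNA hydrolase built into the large subunit, 33.6, and Mrps36 42.8. The highest member was 20.7 times the lowest, whereas the order hardly changed between libraries: over the 74 genes the lowest Spearman correlation among the 15 pairs of libraries was 0.970, across genes, which share each library. Summed FPKM of the 47 large-subunit genes was 2.10 to 2.21 times that of the 26 small-subunit genes. This ratio was lowest in conduit sample 1 and highest in conduit sample 3. The sums run over unlike numbers of genes and leave out ribosomal proteins with other symbols. Per gene, the median level was 24.2 FPKM in the large subunit and 23.1 in the small one. Near-identical copies make single levels uncertain, since reads can be divided: RefSeq names a pseudogene or a like gene for 24 of the members.

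**Figure D1:**
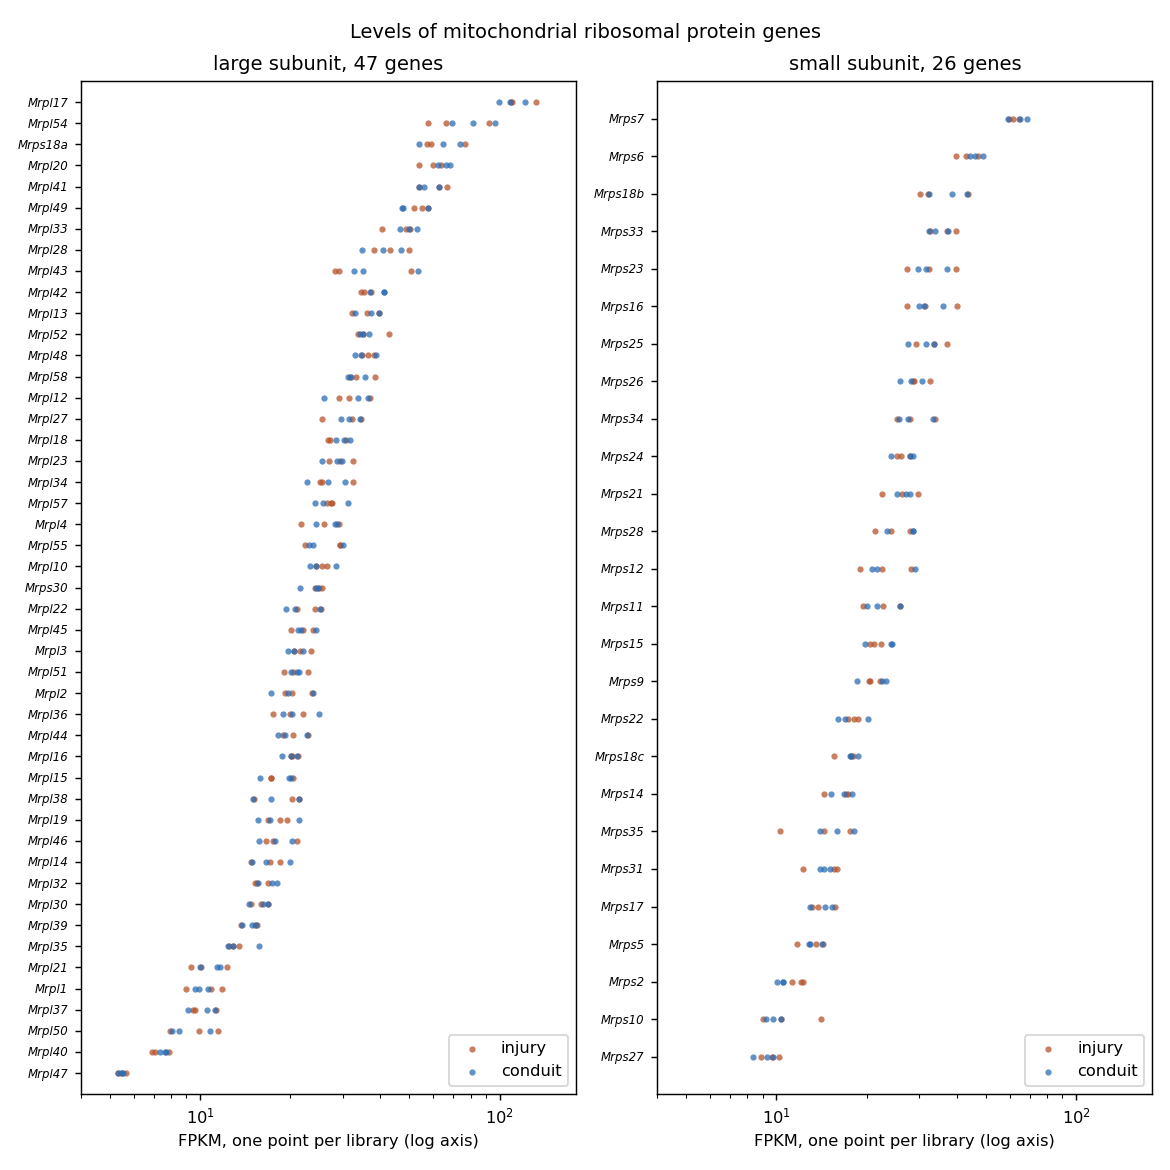
Deposited FPKM (log axis) of the 47 large-subunit genes, left, and the 26 small-subunit genes, right, with 1 point per library and the groups in 2 colours. Mrpl17 and Mrps7 lead their subunits, Mrpl47 is lowest, and the points of the groups lie over each other.

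The genes were then set beside their promoters, because nuclear genes of mitochondrial proteins are known for sites of a few general factors, among them the ETS factor GABPA, NRF1 and YY1. RefSeq windows of build GRCr8, from 250 bases before to 50 bases after the first listed start of a gene, were found for 59 members by symbol. The letters searched, on both strands, were CCGGAAG for ETS factors, GCGC, any 1 base and TGCGC for NRF1, AAGATGGC for YY1, GGGCGG for SP1 and CACGTG for an E-box. ETS and YY1 letters can share the run AAG, but matches of different kinds shared bases in 0 of the 59 windows. A match is a description of letters, not a binding site. At least 1 of the first 3 was present in 33 of 59 member windows (55.9%), against 25.4% of 12830 windows of tested genes and 15.5% of all 27457 windows. The windows below were chosen to show each kind of match: in Mrpl17 and Mrps7, the highest genes of their subunits, in Mrpl3, a protein close to the peptidyl transferase centre, in Mrps18b, which holds all 3 kinds, and in Mrpl46, whose window is shared with another member. Each is written 5′ to 3′ on the gene's strand, with ETS, NRF1 and YY1 matches in capitals.
Mrpl3, GRCr8 chr8:114548720-114549019, plus strand: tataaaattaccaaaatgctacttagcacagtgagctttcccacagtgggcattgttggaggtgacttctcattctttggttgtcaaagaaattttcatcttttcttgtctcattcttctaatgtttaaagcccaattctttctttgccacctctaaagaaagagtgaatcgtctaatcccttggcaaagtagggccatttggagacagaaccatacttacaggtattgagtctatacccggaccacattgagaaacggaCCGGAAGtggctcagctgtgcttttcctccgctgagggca
Mrps7, GRCr8 chr10:101342392-101342691, plus strand: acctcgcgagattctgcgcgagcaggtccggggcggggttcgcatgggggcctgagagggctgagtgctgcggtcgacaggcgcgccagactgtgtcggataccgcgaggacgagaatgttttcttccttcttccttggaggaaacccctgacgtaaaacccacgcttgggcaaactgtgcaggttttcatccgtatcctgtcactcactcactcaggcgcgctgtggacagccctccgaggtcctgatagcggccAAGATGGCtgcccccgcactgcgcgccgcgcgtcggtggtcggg
Mrpl17, GRCr8 chr1:169575650-169575949, minus strand: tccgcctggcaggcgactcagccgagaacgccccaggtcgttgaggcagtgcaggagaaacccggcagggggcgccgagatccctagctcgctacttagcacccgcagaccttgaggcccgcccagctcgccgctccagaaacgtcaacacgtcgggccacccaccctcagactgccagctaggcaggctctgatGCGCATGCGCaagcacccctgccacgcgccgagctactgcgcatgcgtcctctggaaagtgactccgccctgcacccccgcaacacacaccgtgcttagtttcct
Mrps18b, GRCr8 chr20:2842756-2843055, plus strand: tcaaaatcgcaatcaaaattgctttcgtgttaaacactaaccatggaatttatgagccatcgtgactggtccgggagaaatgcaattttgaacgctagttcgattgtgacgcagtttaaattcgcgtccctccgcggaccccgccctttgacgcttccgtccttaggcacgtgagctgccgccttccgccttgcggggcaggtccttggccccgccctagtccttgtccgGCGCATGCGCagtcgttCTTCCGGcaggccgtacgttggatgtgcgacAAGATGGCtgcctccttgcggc
Mrpl46, GRCr8 chr1:142116981-142117280, minus strand: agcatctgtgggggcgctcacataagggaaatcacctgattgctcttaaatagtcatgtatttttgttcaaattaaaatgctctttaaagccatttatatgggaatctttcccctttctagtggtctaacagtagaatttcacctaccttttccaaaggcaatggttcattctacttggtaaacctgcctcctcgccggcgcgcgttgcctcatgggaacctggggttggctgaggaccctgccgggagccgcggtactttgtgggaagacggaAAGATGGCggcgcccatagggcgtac

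The ETS match of Mrpl3 begins 10 bases after the start site, and the YY1 match of Mrps7 begins 6 bases after it. Mrpl17 has its NRF1 match 55 bases before the start. In Mrps18b the NRF1 match begins 20 bases and the ETS match 3 bases before the start, and the YY1 match 28 bases after it. Over all members, ETS letters were in 20 windows (33.9%; 15.3% of tested genes, 9.22% of all windows) and YY1 letters in 15 (25.4%; 4.82% and 3.44%). NRF1 letters were in 9 (15.3%; 8.77% and 4.71%). SP1 letters were in 49.2% of member windows, 58.2% of those of tested genes and 34.9% of all, and E-boxes in 10.2%, 8.86% and 6.65%. The YY1 matches lay at a median of 16 bases after the start and the ETS matches at 20 bases before it. G and C made up a median of 56.0% of the member windows and 60% of those of tested genes.

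Of the 59 member windows 15 (25.4%) overlapped the window of a gene on the opposite strand, as did 13.4% of those of tested genes. Mrpl46 and Mrps11, a large-subunit and a small-subunit gene, start head to head and share most of the window printed above for Mrpl46. Mrpl47 shares its window with Ndufb5, a complex I subunit, Mrpl32 with Psma2, a proteasome subunit, and Mrpl49 with Fau, which encodes a cytosolic ribosomal protein. Mrpl46 stood at 24.4, 19.02 and 18.6 CPM in injury and 17.8, 20.8 and 24.5 in conduit (samples 1, 2 and 3 of each group) and Mrps11 at 27.2, 19.04 and 22.9 CPM in injury and 20.5, 22.9 and 28.2 in conduit. Both were highest in conduit sample 3, followed by injury sample 1.

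**Figure D2:**
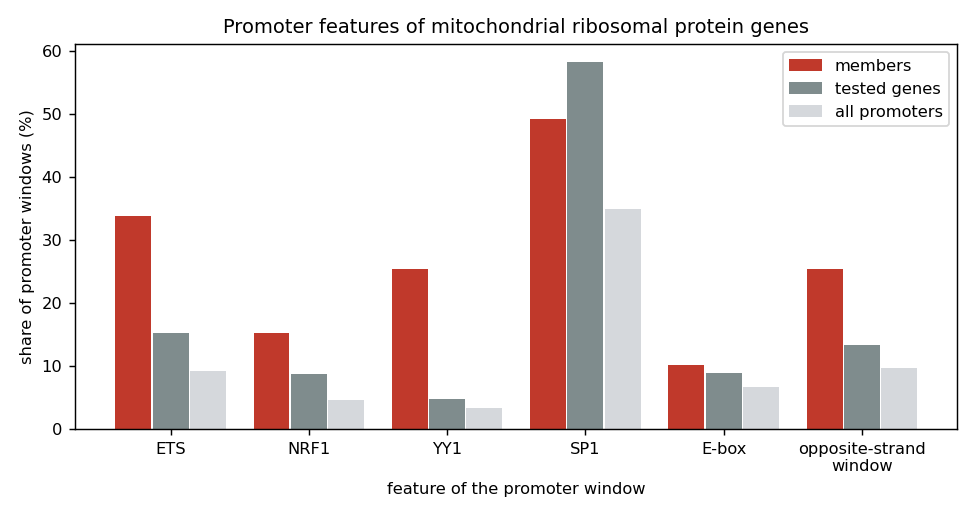
Share of promoter windows (%) with the letters of each motif, and with a window on the opposite strand that overlaps, in 59 members, 12830 tested genes and all 27457 windows; bars start at 0. ETS, NRF1 and YY1 letters and shared windows are more frequent in the members than in either background, and E-boxes slightly so. SP1 letters are less frequent than in tested genes.

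Between conduit and injury no mitochondrial ribosomal gene passed the test. All 74 members passed the filter on low counts. edgeR's quasi-likelihood test, with Benjamini-Hochberg adjustment over all 16478 genes, called 0 of them at an adjusted p under 0.05, where it called 0.00607% of all genes, which is 1 gene. At an unadjusted p under 0.05 there were 0 of 74, against 5.35% of all genes (2.99% higher and 2.36% lower in conduit). Of the tested genes in the members' range of mean log2 CPM, 4.49% were under that p. DESeq2 called 0 members and 1.19% of the 17494 genes it gave an adjusted p, and limma-voom called 0 members. The median log2 fold change of the members, conduit over injury, was 0.05, against 0.00173 over all genes. Fold changes ranged from -0.14 to 0.24, so all 74 lay within 0.25 of no change on the log2 scale. The same held for 75% of all tested genes and for 91.3% of the 7955 tested genes in the members' range of mean log2 CPM. Above 0 were 54 members, where 50.5% of all tested genes are higher, but in log2(FPKM + 1), without TMM scaling, 35 of 74 were, and there the median of all genes was itself lower, at -0.04. Summed over the members, the level was 2315 ± 303 CPM in injury and 2407 ± 285 in conduit (mean ± SD, n = 3), a difference smaller than the spread within either group. Of the cell types, the 6 Schwann cell markers summed to 28982 to 35483 CPM in injury and 42339 to 48592 in conduit, without overlap and with none at 0. Lower in conduit without overlap were the sums of the erythroid markers (72.5 to 331 CPM in injury, 12.1 to 18.5 in conduit), the neutrophil markers (51.2 to 567 and 8.04 to 28.3) and the bone markers (42.1 to 177 and 15.7 to 39.5). The part of these cell types in the members' values was not tested.

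The intervals show how large a difference the 6 libraries leave possible, if they are independent and free of batch and day effects. With 95% intervals from the same fit, every one of the 74 members lay within a 2-fold change in either direction, as did 73.8% of all tested genes. Within 1.41-fold lay 62 of 74, against 48.0% of all. The tested genes include ones with fewer counts than any member. These shares were not computed for genes in the members' range of mean log2 CPM. A single member, Mrpl47, had groups that did not overlap (1.35% of the members, against 9.63% of all tested genes and 9.13% of those in the members' range of mean log2 CPM). Its levels were 15.99, 15.9 and 15.7 CPM in injury and 16.1, 16.1 and 16.97 in conduit, a fold change of 0.05 (SE 0.09), and its groups overlapped under RLE scaling or without the filter. It is named here because its values were seen. Leaving out injury sample 1 gave 72 of 74 members above 0 and a median of 0.17, and leaving out conduit sample 1 gave 69 and 0.13. Leaving out injury sample 2 or conduit sample 3 gave 32 and 30 of 74 and medians of -0.02 and -0.03. The largest change of any member reached 0.60 when injury sample 1 was left out, 0.38 for conduit sample 1, 0.32 for conduit sample 2 and 0.30 for injury sample 2. It was 0.49 with batch as a term. Within batch 2, conduit sample 1 against injury sample 3, the median was -0.07 with 18 of 74 members higher.

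**Figure D3:**
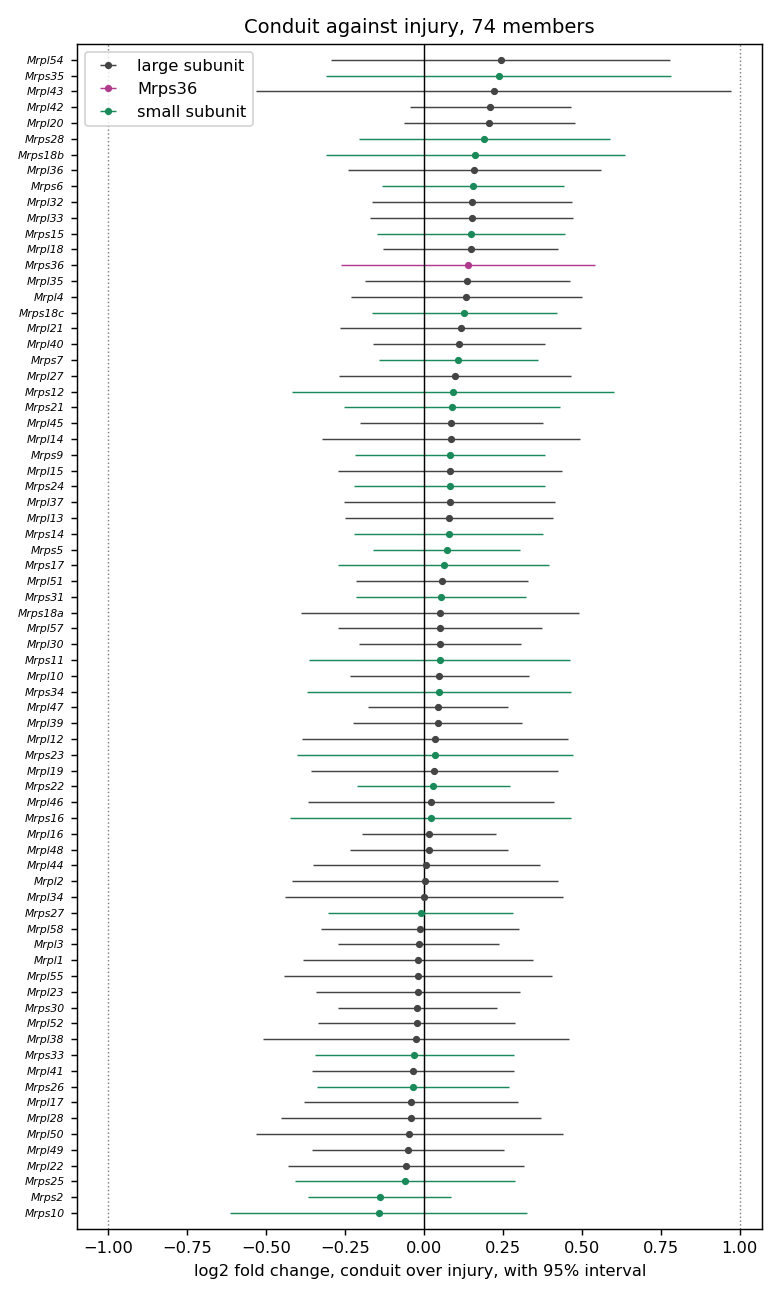
Log2 fold change, conduit over injury, with its 95% interval from edgeR for each of the 74 members, ordered by fold change and coloured by subunit; dotted lines mark a 2-fold change. Every interval includes 0 and lies inside the dotted lines, and large-subunit and small-subunit genes are mixed along the order.

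Small-subunit genes are given first, with every fold change as log2 of conduit over injury. Mrps7 stood at 65.7, 56.5 and 60.1 CPM across injury samples 1, 2 and 3, and at 58.3, 66.3 and 71.99 across conduit samples 1, 2 and 3. Conduit sample 3 was highest and injury sample 2 lowest, and the groups overlapped. Its log2 fold change was 0.11 (SE 0.11; edgeR adjusted p = 0.99981), with a 95% interval of -0.14 to 0.36. Mrps15, an rRNA-binding protein of the subunit's body, was at 49.9, 42.98 and 45.4 CPM across injury samples 1, 2 and 3, and at 42.7, 54.7 and 55.9 across conduit samples 1, 2 and 3. Here conduit samples 2 and 3 exceeded every injury library while conduit sample 1 was below all of them, and the fold change was 0.15 (SE 0.13; edgeR adjusted p = 0.99981). Mrps6 was the only other small-subunit gene among the 6 higher members with the smallest p, at 31.3, 24.6 and 27.4 CPM in injury and 28.5, 30.7 and 33.6 in conduit, and its fold change was 0.16 (SE 0.12). Mrps2, the homolog of a bacterial protein on the solvent side of the small subunit, had the smallest p among members below 0. It was at 32.3, 29.5 and 28.4 CPM across injury samples 1, 2 and 3, and at 25.7, 27.7 and 28.5 across conduit samples 1, 2 and 3, all conduit libraries but the third below every injury library. The fold change was -0.14 (SE 0.10; edgeR adjusted p = 0.99981), with an interval of -0.37 to 0.09. Mrps10 reached 22.6 CPM in injury sample 1 and between 13.5 and 17.2 in all other libraries. Its fold change was -0.14 (SE 0.20) with injury sample 1 and 0.10 without it. Mrps25, a protein found only in mitochondrial ribosomes, was at 27.8, 20.5 and 24.2 CPM in injury and 22.9, 20.7 and 25.99 in conduit, with a fold change of -0.06 (SE 0.15). Over the 26 small-subunit genes the median fold change was 0.07, with 20 above 0 and 0 called.

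Among large-subunit genes, Mrpl12, the flexible stalk protein that recruits translation factors and is also known to bind the mitochondrial RNA polymerase, was at 58.8, 43.1 and 47.96 CPM across injury samples 1, 2 and 3, and at 40.1, 53.7 and 59.8 across conduit samples 1, 2 and 3. Conduit samples 1 and 3 were the lowest and the highest of the 6 libraries, so the conduit group spanned the injury group. The fold change was 0.04 (SE 0.18; edgeR adjusted p = 0.99981), with an interval of -0.39 to 0.46, and within batch 2 it was -0.26. Mrpl3 stood at 39.3, 33.7 and 33.1 CPM across injury samples 1, 2 and 3, and at 31.9, 37.1 and 35.8 across conduit samples 1, 2 and 3, and the fold change was -0.02 (SE 0.11; edgeR adjusted p = 0.99981), with an interval of -0.27 to 0.24. Mrpl42, found only in mitochondrial ribosomes, had the smallest p of all members, 0.0918 before adjustment. Its values were 29.5, 26.1 and 26.2 CPM in injury and 28.3, 32.8 and 33.6 in conduit, and conduit samples 2 and 3 exceeded every injury library. The fold change was 0.21 (SE 0.11; edgeR adjusted p = 0.99981), with an interval of -0.04 to 0.46. Mrpl20, an rRNA-binding protein known for early assembly of the bacterial large subunit, came next at 49.3, 38.7 and 44.4 CPM in injury and 46.7, 51.5 and 54.6 in conduit. Again conduit samples 2 and 3 were above all injury libraries and conduit sample 1 was not, and the fold change was 0.21 (SE 0.11; edgeR adjusted p = 0.99981).

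Mrpl18, whose bacterial relative binds the smallest rRNA, was at 29.5, 24.5 and 24.8 CPM in injury and 26.5, 29.3 and 31.4 in conduit, a fold change of 0.15 (SE 0.12). Mrpl32, which is known to be cut by the inner-membrane m-AAA protease before it joins the ribosome, was at 13.2, 11.3 and 11.5 CPM in injury and 11.8, 13.6 and 14.6 in conduit, a fold change of 0.15 (SE 0.13). In both genes the highest library was conduit sample 3 and the lowest injury sample 2, and the groups overlapped. Below 0 with the smallest p were Mrpl49, at 100.2, 83.5 and 91.7 CPM in injury and 79.3, 83.05 and 103 in conduit, Mrpl22, which lines the peptide tunnel, at 18.97, 16.9 and 15.1 CPM in injury and 14.02, 15.6 and 19.4 in conduit, and Mrpl17, which was at 159, 122 and 127 CPM in injury and 115, 131 and 150.3 in conduit. Their fold changes were -0.05 (SE 0.13), -0.06 (SE 0.16) and -0.04 (SE 0.14), each smaller than its error, and all 3 turned above 0 without injury sample 1 or without conduit sample 1. Over the 47 large-subunit genes the median was 0.05, with 33 above 0 and 0 called. In the large subunit, genes listed with a bacterial counterpart had a median of 0.05 and the other genes 0.03. In the small subunit these medians were 0.08 and 0.03. The other genes include Mrps18a and Mrps18b, although both are named above as paralogs of bacterial S18.

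The libraries of each group differed from one another more than the groups did, and most members deviated in the same direction within a library. Each gene's log2 CPM was set against its own mean over the 6 libraries. In conduit sample 3, 69 of 74 members were above their mean and in injury sample 1 68 were, whereas 5 were in conduit sample 1 and 4 in injury sample 2. Of all tested genes 49.1% to 50.9% were above their mean in any library. The median deviation was 0.20 in conduit sample 3, 0.17 in injury sample 1, 0.01 in conduit sample 2, -0.04 in injury sample 3, -0.13 in conduit sample 1 and -0.18 in injury sample 2. Within the injury group, sample 1 exceeded sample 2 by a median of 1.29-fold, with 71 of 74 members higher. Within the conduit group, sample 3 exceeded sample 1 by 1.24-fold, with 70 of 74 higher. Both subunits shared this order: the median deviations of large-subunit and small-subunit genes were 0.21 and 0.18 in conduit sample 3 and -0.17 and -0.22 in injury sample 2. The highest level fell in conduit sample 3 for 45 members and in injury sample 1 for 22, and the lowest in injury sample 2 for 42 and in conduit sample 1 for 21.

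**Figure D4:**
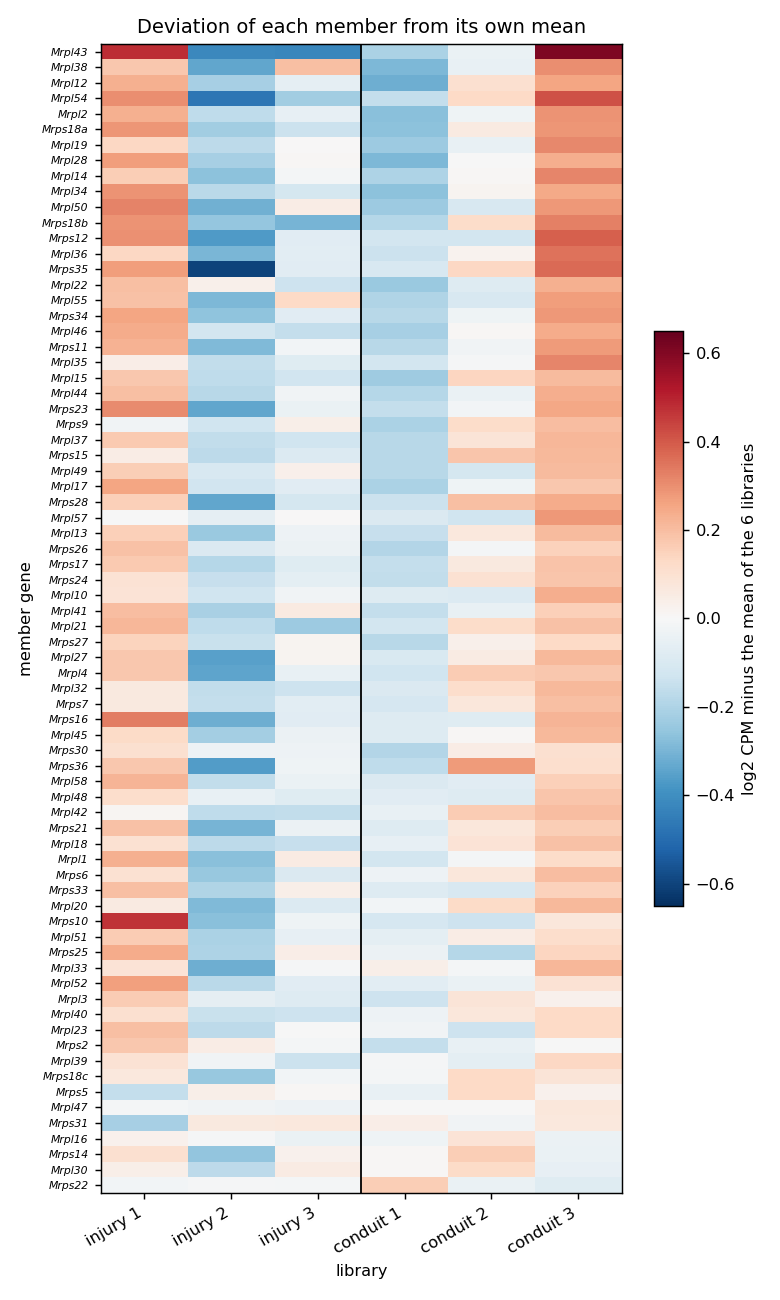
Log2 CPM of each member minus its mean over the 6 libraries, with genes in rows, ordered by conduit sample 3 minus conduit sample 1, and libraries in columns; the black line parts injury from conduit. Injury sample 1 and conduit sample 3 are mostly above the mean (red), and injury sample 2 and conduit sample 1 mostly below it (blue).

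The widest spread within groups was that of Mrpl43, a large-subunit protein found only in mitochondrial ribosomes, with a pooled SD of 0.48 on the log2 scale. It was at 63.5, 34.1 and 33.98 CPM across injury samples 1, 2 and 3, and at 39.6, 44.3 and 69.5 across conduit samples 1, 2 and 3. Injury sample 1 and conduit sample 3 stood well above the other libraries of their groups. Mrps35 followed with an SD of 0.35, at 40.3, 22.04 and 31.8 CPM in injury and 31.1, 36.7 and 43.2 in conduit, and Mrpl54 with 0.34, at 57.2, 33.5 and 39.7 CPM in injury and 41.7, 50.8 and 61.8 in conduit. Both were lowest in injury sample 2 and highest in conduit sample 3. Mrpl47 varied least, with an SD of 0.03. The median SD over members was 0.18, against 0.15 for the tested genes in the members' range of mean log2 CPM. Named for their place in the ribosome after their values were seen, Mrps12 of the decoding centre was at 26.97, 16.98 and 20.9 CPM in injury and 20.2, 20.2 and 28.7 in conduit, and Mrpl45, which tethers the ribosome to the inner membrane, was at 53.3, 42.03 and 47.7 CPM in injury and 46.1, 49.1 and 56.6 in conduit. Both were highest in conduit sample 3, followed by injury sample 1, and lowest in injury sample 2, as was the members' median deviation.

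Other gene groups shared this order in part. The 37 nuclear complex I genes had median deviations of 0.18 in injury sample 1, -0.30 in injury sample 2, -0.12 in conduit sample 1 and 0.16 in conduit sample 3. The 90 tested cytosolic ribosomal protein genes were at 0.25 in injury sample 1, where 78 of 90 had their highest level, at -0.17 in injury sample 2 and at 0.06 in conduit sample 3. The 8 neuron markers had medians of 0.17 in injury sample 1, -0.04 in injury sample 2, -0.21 in conduit sample 1 and 0.30 in conduit sample 3. Tubb3, Prph, Nefh, Snap25 and Isl1 were highest in conduit sample 3, but Scn9a, Scn10a and Avil were not. Scn9a was lowest in injury sample 1, at 216 CPM. The 8 markers summed to 8765 CPM in conduit sample 1 and 12624 in conduit sample 3. Over the injury group these sums were 9995 to 11142 CPM and over the conduit group 8765 to 12624, with none of the 8 at 0. The part of neuron content in the members' order was not tested. The 13 protein genes of mitochondrial DNA, which these ribosomes translate, had a median fold change of 0.21 with 12 of 13 above 0 and 0 called, and followed another order: their median deviation was highest in conduit sample 2, at 0.36, and lowest in injury sample 1, at -0.21. Conduit sample 2 also had the highest muscle marker sum, whose part in this was not tested.

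Shorter genes were high and low in the same pairs of libraries. Injury sample 1 was highest for genes under 1 kb, and conduit sample 3 for those of 1 to 2 kb. Among tested genes that are no members, the median deviations of 781 genes under 1 kb were 0.17 in injury sample 1, -0.19 in injury sample 2, -0.07 in conduit sample 1 and 0.14 in conduit sample 3. Those of 2659 genes of 1 to 2 kb were 0.10, -0.09, -0.06 and 0.12 in the same libraries. Those of 5982 genes over 4 kb were -0.08, 0.05, 0.05 and -0.07 there. Of the members 28 are under 1 kb, 35 between 1 and 2 kb and 11 between 2 and 4 kb. The 11 long members were at 0.15, -0.16, -0.10 and 0.13 in these libraries, while 4898 other genes of 2 to 4 kb were at 0.03, -0.02, -0.02 and 0.04. The part of gene length in the members' order was not tested beyond these values.

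**Figure D5:**
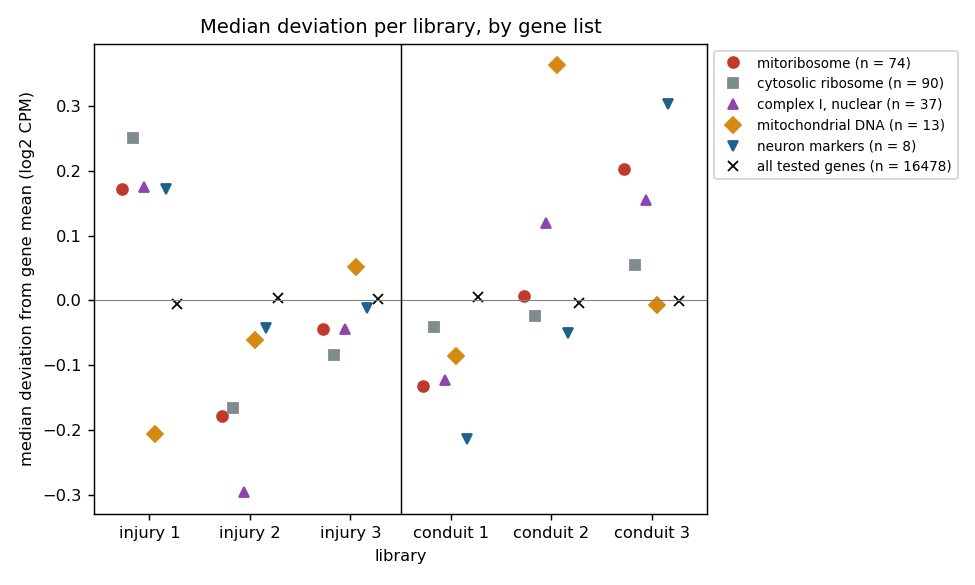
Median over the genes of a list of log2 CPM minus the gene's mean over the 6 libraries, 1 symbol per list and library. The mitochondrial ribosome and complex I lie high in injury sample 1 and conduit sample 3 and low in injury sample 2 and conduit sample 1, mitochondrial DNA is highest in conduit sample 2, and all tested genes stay near 0.

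The remaining genes of mitochondrial translation were read from the same fit, in lists by function. None of their genes was called over all genes. The 5 ribosomal proteins with other names had a median fold change of 0.06. Chchd1, a small-subunit protein, had the smallest p among them, at 28.1, 18.9 and 21.9 CPM in injury and 23.8, 26.1 and 31.5 in conduit and 0.24 (SE 0.18), followed by Dap3, the GTP-binding protein of the small subunit, at 0.06 (SE 0.09). Of 15 translation factors 11 were above 0 and 0 had an unadjusted p under 0.05 (5.35% of all tested genes), with a median of 0.05. Guf1, an elongation factor that acts on stalled ribosomes, was at 26.6, 27.1 and 24.8 CPM in injury and 28.4, 29.96 and 30.2 in conduit, a fold change of 0.17 (SE 0.09), and Taco1, an activator of translation of cytochrome oxidase, at 4.30, 4.82 and 4.65 CPM in injury and 5.45, 5.65 and 5.42 in conduit and 0.26 (SE 0.16). In both genes, and in 3 of the 15 factors in all (20%), every conduit library was above every injury library, as in 5.41% of all tested genes.

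Of 25 assembly factors and rRNA-modifying enzymes 11 were above 0, the median was -0.02, and 1 had an unadjusted p under 0.05 (5.35% of all tested genes). This was Tfb1m, the methyltransferase that modifies the rRNA of the small subunit. It was at 62.5, 62.6 and 61.2 CPM across injury samples 1, 2 and 3, and at 74.1, 71.3 and 69.7 across conduit samples 1, 2 and 3, without overlap, and its fold change was 0.21 (SE 0.07; edgeR adjusted p = 0.809). Fastkd2, which acts on the large-subunit rRNA, was at 13.03, 13.1 and 13.8 CPM in injury and 10.5, 12.2 and 11.2 in conduit, its conduit values lying below every injury value, and its fold change was -0.24 (SE 0.11; edgeR adjusted p = 0.99981). Of 17 mitochondrial aminoacyl-tRNA synthetases, which load the tRNAs, 11 were below 0 and 2 had an unadjusted p under 0.05 (5.35% of all tested genes). Mars2, for methionine, was at 10.4, 11.2 and 11.4 CPM in injury and 9.39, 7.94 and 8.56 in conduit, -0.35 (SE 0.13; edgeR adjusted p = 0.867), and Vars2, for valine, at 13.5, 13.5 and 13.6 CPM in injury and 12.3, 10.2 and 10.4 in conduit, -0.30 (SE 0.12; edgeR adjusted p = 0.915). Both were below every injury library in all 3 conduit libraries, as were 4.22% of all tested genes. The list's median was -0.08.

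Of 18 genes of mitochondrial transcription and RNA handling 12 were above 0, with a median of 0.05, and 1 had an unadjusted p under 0.05 (5.56%, near the 5.35% of all tested genes). This was Pnpt1, an RNA-degrading enzyme of mitochondria that is also induced by interferon. It was at 31.8, 33.2 and 38.6 CPM across injury samples 1, 2 and 3, and at 48.6, 44.9 and 42.9 across conduit samples 1, 2 and 3, and the conduit libraries exceeded all injury libraries, as in 5.41% of all tested genes. The fold change was 0.40 (SE 0.11; edgeR adjusted p = 0.662), and 0.33 within batch 2. Slirp, the partner of Lrpprc in stabilising mitochondrial mRNA, was at 18.2, 14.6 and 18.7 CPM in injury and 18.9, 19.1 and 21.2 in conduit, without overlap, 0.20 (SE 0.13). The 9 factors known for driving nuclear genes of mitochondrial proteins had a median of -0.04, with 4 above 0 and 1 at an unadjusted p under 0.05 (5.35% of all tested genes). This was Pprc1, a coactivator of the PGC-1 family, at 21.6, 20.4 and 21.1 CPM in injury and 17.3, 17.9 and 16.8 in conduit, lower in every conduit library (4.22% of all tested genes), with a fold change of -0.28 (SE 0.09; edgeR adjusted p = 0.799). Gabpa encodes an ETS factor, and the letters searched for ETS factors stand in capitals in the Mrpl3 and Mrps18b windows above. It was at 28.6, 30.96 and 29.5 CPM in injury and 36.7, 35.96 and 29.8 in conduit, 0.20 (SE 0.11), and the groups overlapped. Over the 9 factors the groups did not overlap in 3 (33.3%; 9.63% of all tested genes), with 1 higher and 2 lower in conduit.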

How the data were processed

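RNA was measured by RNA-seq in 6 rat trigeminal ganglion samples, 3 per group, grouped by title. Total RNA was extracted with TRIzol and mRNA libraries were made, per the labels' protocols. Build mRatBN7.2 is named in the submitters' processing notes, as are HTSeq, HISAT2, fastp, DESeq2 and SAMtools. Their versions, the annotation and the strandedness of counting were not given in the sources used here, so reads of overlapping genes on opposite strands may not be told apart. The deposited counts are whole reads per gene symbol. FPKM, also deposited, rescales the counts by gene length and library total: all 14394 genes checked gave 1 length in every library, within a relative 0.001, so they are no second measurement.

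Tools were DESeq2 1.42.0, limma 3.58.1 and edgeR 4.0.16, under R 4.3.3. Genes were kept by filterByExpr (minimum count 10), scaled by TMM and tested by edgeR's robust quasi-likelihood F test (common biological coefficient of variation 0.295). Log2 CPM used a prior count of 2. An exact permutation test of 3 against 3 cannot go below p = 0.1. On simulated data for conduit against injury, with 16266 genes, edgeR found 46% of the 100 genes set to differ 2-fold and 73% of the 100 set to differ 4-fold, with 7 of 126 calls on unchanged genes. The changed genes were drawn at random from all genes kept by the filter, so these shares are not those of the members. Simulated libraries were independent, without batch or day effects. No library pair agreed within sampling noise (chi-square per degree of freedom at least 30.3). Genes named with folds were the 4 marker genes, up to 6 members per direction and 2 genes per pathway list with the smallest p. Levels alone were given for the 3 highest and 3 lowest genes of each subunit, the 3 widest spreads and 6 genes of special place (the S18 paralogs, Mrps30, Mrpl58, Mrps36). Mrps11, Mrps12, Mrpl45, Mrpl46 and the fold of Mrpl47 were added after their values were seen. Members and lists were chosen with earlier results of these data known. Alternatives were other scalings, tools and filters, FPKM, batch and replicate terms, and libraries left out. Of the symbols, 73 matched RefSeq and 1 a synonym. A planned description of protein N termini was not run.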

Additional observations from a re-analysis of the deposited data

How the results depend on the processing

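No alternative called a member. The smallest adjusted p of any member was 0.641, without injury sample 1. The count of all genes called was 6 without the filter, 209 by DESeq2, 7 by limma on log2(FPKM + 1), 3 on log2(FPKM + 0.1), 0 with batch as a term (257 at an unadjusted p under 0.05), 23 without injury samples 2 and 3 together and 0 to 38 with 1 library left out. It was 0 with the replicate number as a block (554 at an unadjusted p under 0.05), where the members' median stayed at 0.05. Same-numbered samples did not deviate together (correlations -0.42, 0.06 and -0.07), so the numbers show no pairing. Members without overlap numbered 0 under RLE scaling and without the filter, 0 to 13 with 1 library left out (13 without injury sample 1, where 23.4% of all genes did not overlap, and 11 without conduit sample 1, against 18.02%) and 25 without injury samples 2 and 3 (49.0% of all genes). The members' median was -0.13 without those 2 samples, with 1 injury sample left that is assumed to vary like the others, and -0.03 to 0.17 with 1 left out. The cause of these shifts was not tested.

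Single genes that changed direction were all uncalled. With batch as a term the fold changes were -0.26 for Mrpl12, -0.043 for Mrps7, -0.089 for Mrps15 and -0.066 for Dap3. Without injury samples 2 and 3 they were -0.20 for Mrpl12, -0.0052 for Mrps7, -0.020 for Mrps6, -0.021 for Mrpl18 and -0.050 for Chchd1. On FPKM Mrpl12 was -0.026 with a pseudocount of 1 and -0.027 with 0.1. With 1 library left out the ranges were -0.092 to 0.19 for Mrpl12, -0.062 to 0.076 for Mrpl3, -0.30 to 0.10 for Mrps10, -0.17 to 0.064 for Mrps25, -0.18 to 0.028 for Mrpl49, -0.20 to 0.045 for Mrpl22 and -0.14 to 0.10 for Mrpl17.

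Each member had at least 3098 counts over the 6 libraries. With 3 libraries per group the intervals of 12 members reach beyond 1.41-fold, so a difference of that size in at least 1 direction is not excluded in them. The fit takes the libraries as independent and has no term for batch or day. The other intervals therefore do not exclude such a difference either.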
